A study of Mus musculus with 60 samples.

Results

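Acetylcholine is made, stored, recovered, broken down and sensed by the products of a small set of genes, and 8 of them are described here: Chat, Slc18a3, Slc5a7, Ache, Chrm1, Chrm2, Chrm3 and Chrm4. They were taken by symbol from the 21950 genes of the deposited count table, and all 8 were found once. RNA had been sequenced from the hippocampus, prefrontal cortex and striatum of mice labelled Adgrl3 -/- (KO) and Adgrl3 +/+ (WT), with 10 libraries for each genotype and region and 60 in all. The gene, also named Lphn3, codes for a latrophilin, a neuronal receptor of the adhesion class. The labels' protocols give 12 mice per genotype, an age of 65 to 76 days at death, and microdissection of the regions from frozen brains. The labels name no treatment, sex, strain or design of the allele.

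Choline acetyltransferase (Chat) joins choline to an acetyl group in the nerve terminal, the vesicular transporter VAChT (Slc18a3) loads the product into vesicles, and the high-affinity choline transporter CHT1 (Slc5a7) brings choline back after acetylcholinesterase (Ache) has split the transmitter in the synaptic cleft. Muscarinic receptors M1 and M3 (Chrm1 and Chrm3) act mainly through Gq proteins and phospholipase C, whereas M2 and M4 (Chrm2 and Chrm4) act through Gi and Go proteins and lower cyclic AMP. In the striatum acetylcholine comes chiefly from local interneurons, while the hippocampus and cortex are supplied mainly by axons of neurons whose cell bodies lie in the septum and basal forebrain.

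The 3 genes that mark the cholinergic terminal are shown first by their start regions, because their levels moved together between regions. Each line gives bases from 250 before to 50 after the gene's start in RefSeq (GRCm38.p6), read 5′ to 3′ on the gene's strand. Chat is on the minus strand at chr14:32465860-32466159, Slc18a3 on the minus strand at chr14:32464801-32465100, and Slc5a7 on the minus strand at chr17:54298985-54299284. The Slc18a3 window lies within the Chat gene, in the same direction, which is the arrangement known as the cholinergic gene locus. Capitals mark matches, on either strand, to the letters searched.
Chat: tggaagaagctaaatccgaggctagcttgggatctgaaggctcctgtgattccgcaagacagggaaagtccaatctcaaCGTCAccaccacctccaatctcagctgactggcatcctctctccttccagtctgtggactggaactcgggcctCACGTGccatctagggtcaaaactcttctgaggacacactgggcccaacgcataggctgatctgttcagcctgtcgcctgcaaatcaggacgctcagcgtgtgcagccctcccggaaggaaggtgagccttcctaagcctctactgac
Slc18a3: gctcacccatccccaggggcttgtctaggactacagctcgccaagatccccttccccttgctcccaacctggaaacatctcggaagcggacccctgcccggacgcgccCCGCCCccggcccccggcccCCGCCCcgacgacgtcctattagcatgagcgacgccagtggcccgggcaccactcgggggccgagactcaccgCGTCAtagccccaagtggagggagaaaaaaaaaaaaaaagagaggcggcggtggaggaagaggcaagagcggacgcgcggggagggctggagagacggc
Slc5a7: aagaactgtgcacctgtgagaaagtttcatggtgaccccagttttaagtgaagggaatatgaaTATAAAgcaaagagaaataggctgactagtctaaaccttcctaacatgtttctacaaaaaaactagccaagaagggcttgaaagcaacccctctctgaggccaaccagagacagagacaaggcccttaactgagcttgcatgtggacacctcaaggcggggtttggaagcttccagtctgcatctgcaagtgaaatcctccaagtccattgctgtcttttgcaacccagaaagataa
The letters searched were TGACG (the first part of the cyclic AMP response element), the whole element TGACGTCA, which contains TGACG, the Sp1 box GGGCGG, the TATA box TATAAA, the E-box CACGTG and CAGCACC (a part of the RE1 element). TGACG was found in the Chat and Slc18a3 windows and in 20.9% of 32544 RefSeq promoters of the same length. CACGTG was found in the Chat and Ache windows and in 7.17% of all promoters. TATAAA was found in the Slc5a7 window alone among the members and in 13.6% of all promoters. GGGCGG was found in the Slc18a3, Ache, Chrm2 and Chrm4 windows and in 35.9% of all promoters, and CAGCACC in the Chrm4 window and in 7.16%. TGACGTCA was in none of the 7 member windows and in 1.80% of all promoters. The base composition of the 3 windows differed: the GC content was 55.7% for Chat, 67% for Slc18a3 and 44.7% for Slc5a7, against a median of 53% over all promoters. The ratio of observed to expected CpG was 0.436, 0.804 and 0.0668 in the same order, against a median of 0.387, so the choline transporter window was nearly free of CpG.

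Library totals ran from 38985577 to 51387833 counted reads. The labelled regions were checked against lists of marker genes. In the WT libraries the summed level of 13 striatal projection neuron markers was 5840 to 8582 CPM (a share of the TMM-adjusted library total) in striatum, against 457 to 932 in hippocampus and 417 to 487 in prefrontal cortex. The 8 cortical excitatory neuron markers summed to 2198 to 2415 CPM in prefrontal cortex, 1431 to 1682 in hippocampus and 539 to 997 in striatum. The 10 hippocampal neuron markers summed to 856 to 1052 CPM in hippocampus and at most 659 elsewhere. Adgrl3 itself was 125 ± 5.33 CPM (SD, n = 10) in WT and 34.9 ± 3.07 in KO hippocampus, and the KO libraries lay below all WT libraries in each region, with at most 47.0 CPM against at least 117. Nothing in the labels says which libraries came from the same animal, so p-values measure the spread between libraries. In such bulk samples fewer cells of a type and less RNA per cell cannot be told apart.

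Chat, Slc18a3 and Slc5a7 were low in hippocampus and prefrontal cortex and much higher in striatum, in both genotypes. In WT striatum Chat was 25.4 CPM in the lowest library, 27.9 at the median and 39.6 in the highest. In WT prefrontal cortex Chat was 0.374, 0.687 and 1.23 CPM in the same order, and in WT hippocampus 0.153, 0.320 and 2.01 CPM. The lowest striatal library was thus far above the highest library of either other region, and hippocampus and prefrontal cortex overlapped. In reads, WT hippocampal libraries held 7 to 83 for Chat, prefrontal cortex 16 to 52 and striatum 1097 to 1549. The fitted log2 difference between WT striatum and hippocampus was 5.79 ± 0.26 (SE), which is 55.5-fold with a 95% interval of 38.3 to 80.3 (edgeR quasi-likelihood test, adjusted p = 3.3e-18). Against prefrontal cortex it was 5.35 ± 0.25, or 40.7-fold with an interval of 28.5 to 58.1 (adjusted p = 1.1e-17).

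Slc5a7, the choline transporter, had the same order of regions. It was 34.4 CPM in the lowest, 37.8 at the median and 44.9 in the highest WT striatal library. In WT hippocampus it was 0.485, 1.02 and 2.86 CPM, and in WT prefrontal cortex 0.795, 1.18 and 1.87 CPM. Striatum again stood apart with no overlap, and hippocampus and prefrontal cortex did not differ beyond their spread (log2 difference -0.14 ± 0.21, edgeR adjusted p = 0.56). Striatum exceeded hippocampus 34.6-fold (95% interval 26.9 to 44.4) and prefrontal cortex 31.3-fold (24.4 to 40.1).

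Slc18a3, the vesicular transporter, was 7.21 CPM in the lowest, 8.47 at the median and 12.4 in the highest WT striatal library. In WT prefrontal cortex it was 0.210, 0.403 and 0.568 CPM, and in WT hippocampus 0.0431, 0.129 and 0.437 CPM. WT striatum exceeded hippocampus 52.3-fold (95% interval 39.3 to 69.5) and prefrontal cortex 22.2-fold (17.2 to 28.6), without overlap of libraries. Slc18a3 was also lower in WT hippocampus than in prefrontal cortex, by a log2 difference of -1.24 ± 0.25 (edgeR adjusted p = 5.7e-05), although these libraries overlapped and rested on 2 to 24 reads. In the KO libraries the same contrast was -0.28 ± 0.36 (adjusted p = 0.52).

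Slc18a3 occupies chromosome 14, 32462438 to 32464850, inside Chat, at 32408203 to 32465909 on the same strand of GRCm38. A feature of the count table is a gene from start to end, introns included, and reads of nested genes on 1 strand count for both. Where a gene with 6000 or more reads lay inside another on its own strand, the larger one never had fewer reads (0 of 493 pairs). The reads given to Chat therefore include those of Slc18a3. In WT striatum Slc18a3 reads were 26.3% to 33.7% of Chat reads, with a median of 31.0%. In WT prefrontal cortex they were 38.9% to 69.6%, with a median of 58.1%, so most Chat reads there lay in the Slc18a3 interval in the median library. With the Slc18a3 reads taken away, Chat was 20.4 CPM in WT striatum and 0.319 CPM in WT prefrontal cortex, and the difference between these regions grew from 5.35 to 5.99 ± 0.32 on the log2 scale, or 63.4-fold.

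**Figure D1:**
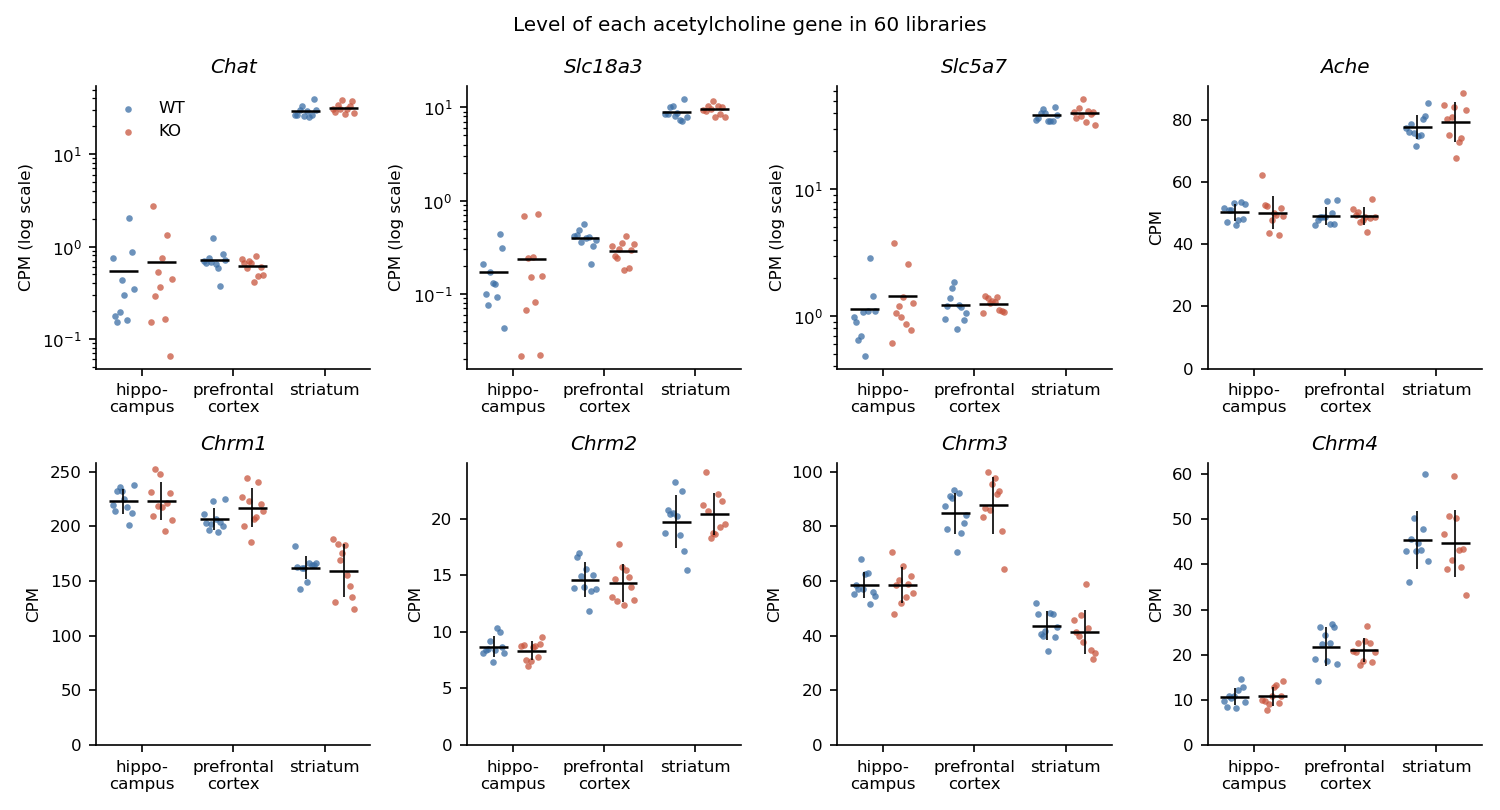
Each point is 1 library, with its level in CPM on the y axis (log scale for Chat, Slc18a3 and Slc5a7, linear from 0 for the others) and region and genotype on the x axis (WT blue, KO red). Horizontal bars are group means and vertical bars SD (n = 10, not drawn on log axes). The 3 terminal genes are far higher in striatum, Chrm4 and Chrm2 step up from hippocampus to striatum, Chrm1 and Chrm3 are lowest in striatum, and WT and KO overlap in every region.

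Ache, which is made by many neurons besides cholinergic ones, differed far less between regions than the genes of the terminal. WT levels were 46.2, 50.9 and 53.7 CPM in hippocampus (lowest, median, highest), 46.2, 48.8 and 54.3 in prefrontal cortex, and 71.7, 76.8 and 85.5 in striatum. Every striatal library was above every library of the other regions, and hippocampus and prefrontal cortex covered the same range. The log2 difference of striatum was 0.63 ± 0.04 against hippocampus and 0.66 ± 0.04 against prefrontal cortex. Both had an edgeR adjusted p under 0.05 but did not reach the log2 difference of 1 that a call between regions also required. Hippocampus against prefrontal cortex was 0.04 ± 0.04 (95% interval -0.04 to 0.11).

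Of the receptors coupled to Gi and Go, Chrm4 (M4, which in striatum is known from cholinergic interneurons and from projection neurons of the direct pathway) rose stepwise from hippocampus to prefrontal cortex to striatum. It was 8.10, 10.6 and 14.5 CPM in WT hippocampus (lowest, median, highest), 14.1, 22.5 and 26.8 in WT prefrontal cortex and 36.2, 44.0 and 59.98 in WT striatum. The striatal libraries overlapped with no others, and the lowest prefrontal library lay within the hippocampal range. Striatum exceeded hippocampus 4.23-fold (95% interval 3.61 to 4.95) and prefrontal cortex 2.09-fold (1.79 to 2.43). The log2 difference between hippocampus and prefrontal cortex was -1.02 ± 0.11, just past the required size. It was -0.97 ± 0.10 in the KO libraries and -0.99 without the WT libraries of replicate number 3, and was then not called, although both had an edgeR adjusted p under 0.05.

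Chrm2 (M2, known as an autoreceptor on cholinergic terminals) had the same order with smaller steps. It was 7.31, 8.46 and 10.3 CPM in WT hippocampus, 11.9, 14.5 and 17.0 in prefrontal cortex and 15.5, 20.3 and 23.3 in striatum. Hippocampus stood below the other regions without overlap, while prefrontal cortex and striatum overlapped. The log2 difference between striatum and hippocampus was 1.18 ± 0.07, which was called. Striatum against prefrontal cortex was 0.43 ± 0.07, and hippocampus against prefrontal cortex -0.75 ± 0.07, both with an edgeR adjusted p under 0.05 but below the required size.

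The receptors coupled to Gq were both lowest in striatum. Chrm1 (M1, a receptor of cortical and hippocampal pyramidal neurons and of striatal projection neurons) was 201, 223 and 238 CPM in WT hippocampus, 195.0, 203 and 225 in prefrontal cortex and 142, 164 and 182 in striatum. WT striatum lay below both other regions without overlap, by log2 differences of -0.46 ± 0.04 and -0.35 ± 0.04, and hippocampus was slightly above prefrontal cortex with overlapping libraries (0.11 ± 0.04, adjusted p = 0.0073). Chrm3 (M3) was 51.7, 57.2 and 68.0 CPM in WT hippocampus, 70.8, 85.8 and 93.3 in prefrontal cortex and 34.5, 42.5 and 52.0 in striatum. Prefrontal cortex was above both other regions without overlap, and the highest striatal library just reached the lowest hippocampal one. Striatum against prefrontal cortex was -0.96 ± 0.06 in WT and -1.09 ± 0.09 in KO, so Chrm3 passed the size limit in the KO libraries and missed it in WT.

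In the striatum against hippocampus contrast 5 of the 8 genes were called, all higher in striatum, and 10.2% of the 15826 genes tested were called in either direction. Against prefrontal cortex 4 of 8 were called, all higher in striatum, with 11.6% of all genes called. Between hippocampus and prefrontal cortex 2 of 8 were called, both lower in hippocampus, with 10.1% of all genes called. The median log2 difference of the 8 genes was 1.63, 0.86 and -0.49 in that order, against -0.0029, 0.013 and 0.025 over all genes tested. In the KO libraries the contrast of hippocampus with prefrontal cortex called 0 of the 8 at the same limits. The share of all genes called in that KO contrast is not given here. Chrm4 only just missed the required size there, at -0.97 ± 0.10, and Slc18a3 was at -0.28 ± 0.36. The test of the interaction of genotype and region called 0 of the 8, so the KO count shows no difference between genotypes.

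**Figure D2:**
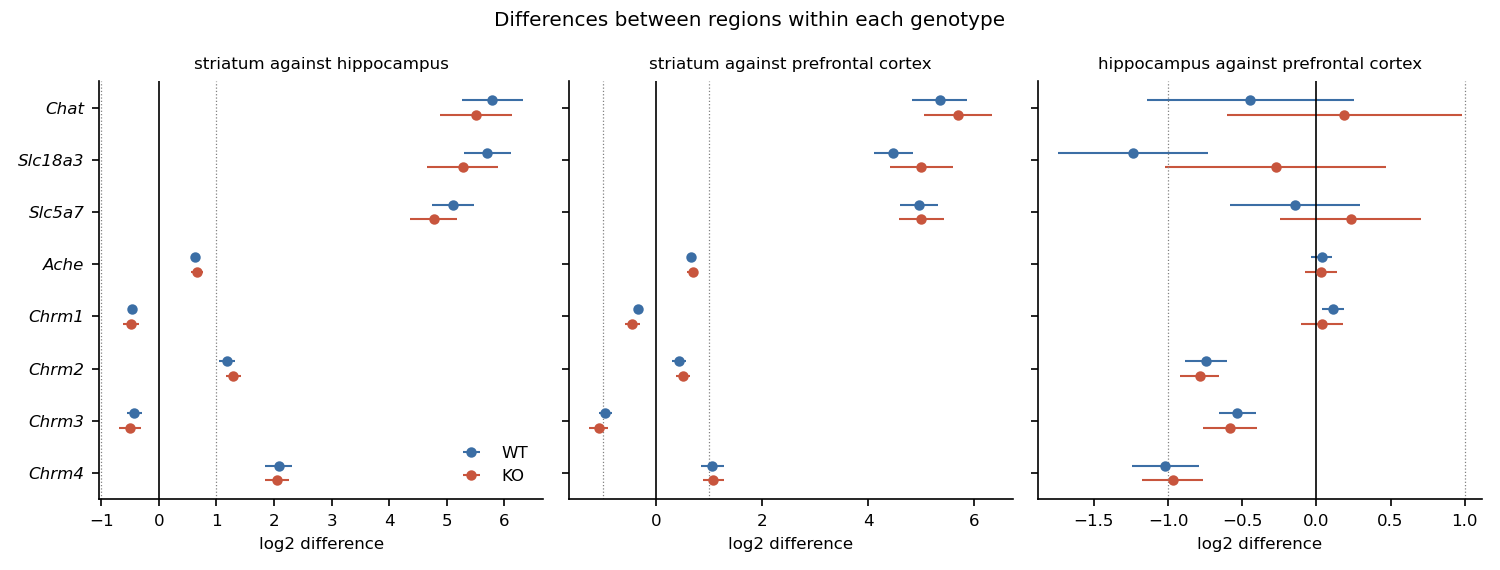
Log2 differences between regions (x axis) for each gene (y axis), fitted separately in the 30 WT libraries (blue) and the 30 KO libraries (red), with 95% intervals. Dotted lines stand at -1 and 1, the size a call required. The WT and KO intervals overlap for every gene, and the widest ones belong to Chat, Slc18a3 and Slc5a7, whose hippocampal and prefrontal levels rest on few reads.

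Levels of different genes were compared only after division by exon length, in CPM per kb of exon, which still counts intron reads and so favours genes with long introns. On that scale Chrm4 was 31.6 ± 4.42 and Chrm1 25.0 ± 1.63 in WT striatum (SD, n = 10), whereas in WT hippocampus Chrm1 was 34.3 ± 1.81 and Chrm4 7.46 ± 1.38. On this scale the order of these receptors was thus opposite in these regions. The lengths join all annotated exons of a gene, 6.49 kb for Chrm1 and 1.44 kb for Chrm4. The order in striatum, where the values were close, therefore depends on these lengths. The counted Chrm4 feature is a single exon of 1.44 kb, so intron reads do not add to its level. Chrm3 spans 485 kb and Chrm2 140 kb, and their levels per kb of exon in WT striatum, 6.97 ± 0.85 and 3.26 ± 0.39, include any intron reads. Chat was 6.22 ± 0.93 and Slc5a7 6.80 ± 0.66 on the same scale, and Ache 16.8 ± 0.85. The Chat value still holds the Slc18a3 reads, which were 26.3% to 33.7% of Chat reads in WT striatum.

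The comparison of KO with WT asked whether loss of Adgrl3 changed any of these genes in a region, and the study's design text adds a combined comparison of the genotypes across regions. No difference between the genotypes was called for any of the 8. In striatum, where the terminal genes can be measured well, KO Chat was 27.2, 31.1 and 38.1 CPM (lowest, median, highest) against 25.4, 27.9 and 39.6 in WT. The ranges overlapped almost wholly. The log2 difference was 0.13 ± 0.08 with a 95% interval of -0.04 to 0.30 (edgeR adjusted p = 0.75). Slc18a3 differed by 0.10 ± 0.09 (-0.09 to 0.29) and Slc5a7 by 0.06 ± 0.07 (-0.09 to 0.21). A change in KO of more than 0.30 upward or 0.09 downward on the log2 scale therefore lay outside the interval of each of these 3 genes in striatum.

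Striatal Ache was 67.7, 80.6 and 88.6 CPM in KO and differed from WT by 0.03 ± 0.04. Of the striatal receptors, Chrm4 was 33.3, 43.3 and 59.6 CPM in KO, with a log2 difference of -0.02 ± 0.09 (-0.21 to 0.17). Chrm2 was 18.3, 20.1 and 24.1 CPM in KO, with a difference of 0.05 ± 0.06. Chrm1 was 124, 163 and 189 CPM in KO and -0.02 ± 0.07 from WT, and Chrm3 was 31.3, 40.6 and 58.8 CPM and -0.07 ± 0.10 from WT. KO and WT overlapped for each of them. The KO libraries of striatum were more spread for Chrm1 (SD 24.1 CPM against 10.5 in WT), and the summed cortical excitatory markers were also more spread there, from 455 to 1171 CPM in KO and from 539 to 997 in WT, with each of the 8 markers over 1 CPM on average. Their part in the spread of Chrm1 was not tested. Of the 8 genes tested in striatum 0 were called, while 0.0514% of all genes were called. An unadjusted edgeR p under 0.05 was found for 0 of the 8 and for 1110 of the 15553 genes tested.

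In prefrontal cortex Slc18a3 was 0.182, 0.300 and 0.421 CPM in KO and 0.210, 0.403 and 0.568 in WT. The KO libraries lay somewhat lower but within the WT range for the most part. The log2 difference was -0.44 ± 0.17 (95% interval -0.79 to -0.09), and edgeR gave an unadjusted p of 0.016 and an adjusted p of 0.30. It rested on 8 to 21 reads in KO and 9 to 24 in WT. The 10 olfactory bulb markers summed to 39.3 to 113 CPM in KO and 53.9 to 193 CPM in WT prefrontal cortex, with 10 of 10 markers over 1 CPM on average in WT and 7 of 10 in KO. With their mean as a covariate, which was chosen after the data were seen, the Slc18a3 difference was -0.32 ± 0.23.

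The other prefrontal members were nearer to 0. Chat was 0.409, 0.626 and 0.782 CPM in KO, with a log2 difference of -0.24 ± 0.16, and -0.02 ± 0.23 with the Slc18a3 reads taken away. Slc5a7 was 1.06, 1.28 and 1.43 CPM in KO, with a difference of 0.02 ± 0.13. Ache differed by -0.01 ± 0.04, Chrm1 by 0.06 ± 0.04, Chrm2 by -0.03 ± 0.07, Chrm3 by 0.04 ± 0.07 and Chrm4 by -0.05 ± 0.10 on the log2 scale. Of the 8 genes 0 were called in prefrontal cortex, while 0.117% of all genes were called. An unadjusted edgeR p under 0.05 was found for 1 of the 8 (Slc18a3) and for 1808 of the 15376 genes tested.

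In hippocampus 7 of the 8 genes passed the filter on low counts, and Slc18a3, with 1 to 35 reads in a library, did not. Chat was 0.0659, 0.407 and 2.73 CPM in KO against 0.153, 0.320 and 2.01 in WT. Its log2 difference of 0.37 ± 0.59 had a 95% interval of -0.86 to 1.60, so a level 3.04-fold that of WT was still within the interval. Slc5a7 was 0.608, 1.13 and 3.78 CPM in KO, with a difference of 0.38 ± 0.34 (-0.33 to 1.08). The genes with more reads were much tighter. Chrm1 was 196, 220 and 252 CPM in KO and differed by 0.00041 ± 0.04. Ache differed by -0.0036 ± 0.05, Chrm2 by -0.06 ± 0.07, Chrm3 by 0.0027 ± 0.06 and Chrm4 by 0.01 ± 0.11. Of the 7 tested 0 were called, while 0.128% of all genes were called. An unadjusted edgeR p under 0.05 was found for 0 of the 7 and for 1269 of the 15581 genes tested.

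When counts were summed over the 3 regions for each genotype and replicate number, Chat had a log2 difference of 0.16 ± 0.07 (95% interval 0.01 to 0.30, edgeR unadjusted p = 0.032, adjusted p = 0.42). Slc18a3 was at 0.12 ± 0.07 and Slc5a7 at 0.09 ± 0.06. The remaining 5 lay between -0.02 and 0.01. The sums of the 3 terminal genes consist almost wholly of striatal reads. Of the 8 genes 0 were called, while 0.162% of all genes were called. An unadjusted edgeR p under 0.05 was found for 1 of the 8 (Chat) and for 1758 of the 16676 genes tested. The edgeR test of whether the genotype difference varied with region called 0 of the 8, with an adjusted p of 0.9998 for each, while 0.0248% of all genes were called. Its unadjusted p was under 0.05 for 0 of the 8 and for 638 of the 16121 genes tested. DESeq2 and limma voom called 0 of the 8 in each of these comparisons in which they were run.

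**Figure D3:**
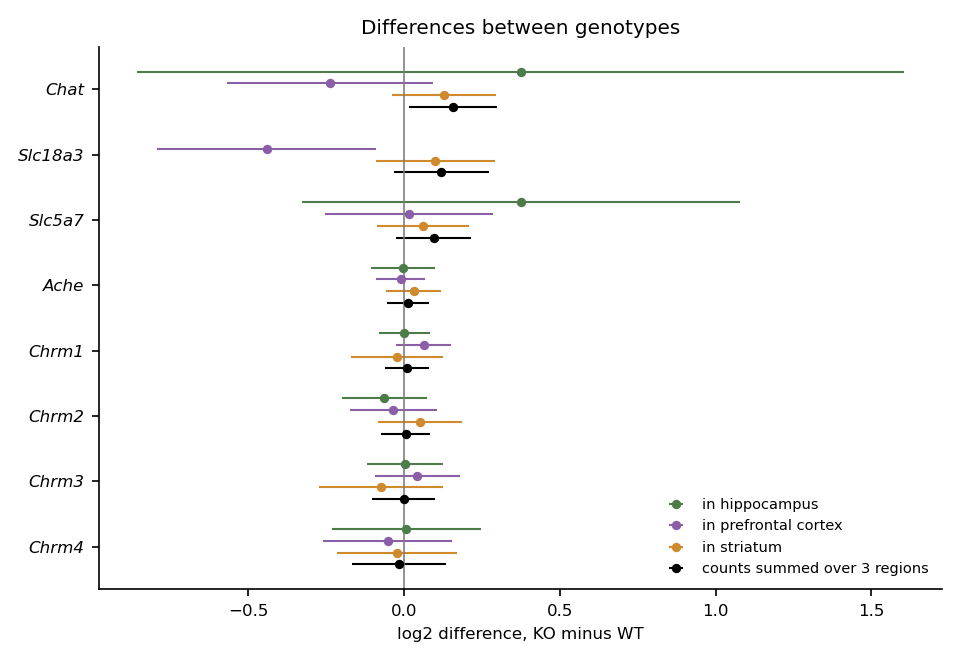
Log2 difference of KO minus WT (x axis) with its 95% interval for each gene (y axis) in hippocampus, prefrontal cortex and striatum (10 KO and 10 WT libraries each) and in counts summed over the 3 regions. Slc18a3 has no hippocampal value because it did not pass the filter on low counts. The intervals of Ache and the receptors lie between -0.27 and 0.25, and the widest is that of Chat in hippocampus, from -0.86 to 1.60.

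The wide spread of the terminal genes in hippocampus came with markers of tissue outside the hippocampus. The 3 libraries of highest hippocampal Chat, of 20, were KO replicate 2 (2.73 CPM), WT replicate 8 (2.01 CPM) and KO replicate 8 (1.34 CPM). KO replicate 2 held 2.06 CPM and WT replicate 8 held 1.24 CPM of Isl1, a transcription factor of cholinergic and striatal neurons, against at most 0.949 in the other hippocampal libraries. Drd1, the D1 dopamine receptor, was 20.6 and 19.5 CPM in these libraries, against a median of 7.50 CPM in WT hippocampus. KO replicate 8 instead held 1.54 CPM of Pou4f1 and 3.52 CPM of Gpr151, both markers of the medial habenula, whose neurons are cholinergic in part, against a median of 0.0529 and 0.592 CPM in KO hippocampus. The summed 10 markers of basal forebrain, septum and pallidum ranged from 109 to 251 CPM in KO and from 88.9 to 276 CPM in WT hippocampus, with 7 of 10 over 1 CPM on average. The 8 medial habenula markers ranged from 48.4 to 87.8 and from 51.5 to 59.3 CPM, with 2 of 8 over 1 CPM.

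Hippocampal libraries with over 1 CPM of Isl1 or Pou4f1 were left out, 3 in all, by a limit set after the data were seen. The KO minus WT difference of Chat was then -0.13 ± 0.43 and that of Slc5a7 0.12 ± 0.20. With all libraries these were 0.37 ± 0.59 and 0.38 ± 0.34. The 3 left out, KO replicates 2 and 8 and WT replicate 8, held the most Chat, so this shift is no independent test. In the WT fit the same limit left out WT replicate 8, the WT hippocampal library of highest Chat. A fall of hippocampal Chat was thus fixed in advance, and the p that follows is no independent test. Chat was then lower in hippocampus than in prefrontal cortex by -0.92 ± 0.26 (edgeR adjusted p = 0.0027), against -0.45 ± 0.34 with that library. With all WT libraries and the Slc18a3 reads taken from Chat, the contrast was 0.17 ± 0.44 (adjusted p = 0.75), so its direction turned with the shared reads. The difference between WT striatum and hippocampus was 6.27 ± 0.20 without that library and 5.79 ± 0.26 with it.

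**Figure D4:**
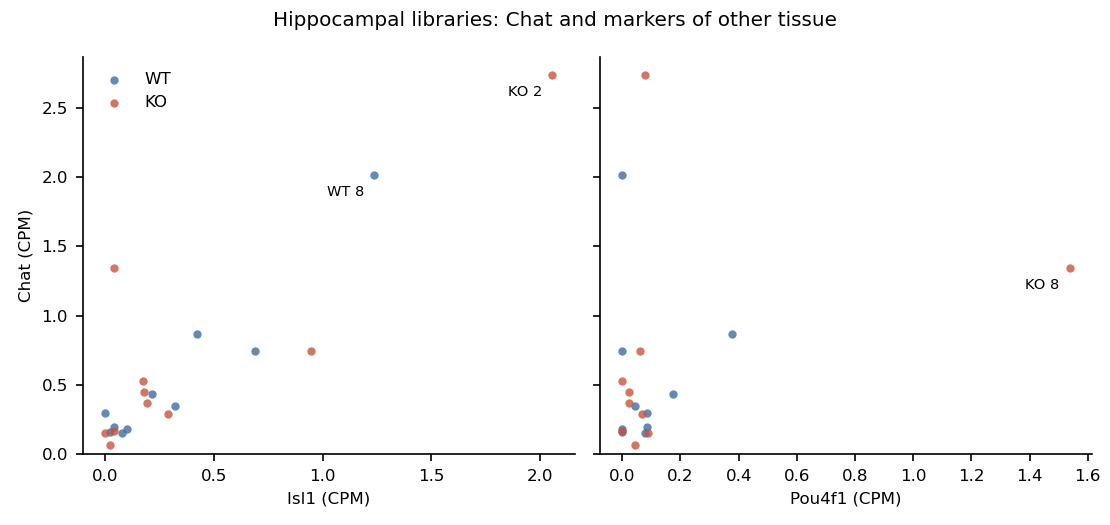
Chat level (y axis, CPM) against Isl1 (left) and Pou4f1 (right, x axes, CPM) in the 10 WT (blue) and 10 KO (red) hippocampal libraries, 1 point each. The libraries with over 1 CPM of a marker carry their genotype and replicate number, and they are the 3 with the highest Chat, at 2.73, 2.01 and 1.34 CPM.

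In hippocampus and striatum Chat, Slc18a3 and Slc5a7 also varied together between libraries, and no relation of Chat with Ache passed the test in any region. For each region the log2 CPM of Chat was correlated with that of Slc18a3, Slc5a7 and Ache over 20 libraries after the genotype means were removed, by two-sided permutation within genotype and with Benjamini-Hochberg adjustment over the 9 relations. In striatum Chat and Slc5a7 had Pearson's r = 0.80 (permutation adjusted p = 4.5e-05) and Spearman's rho = 0.78 (adjusted p = 0.00043). Without the 2 libraries farthest from the median of Chat r was 0.73, and with the Slc18a3 reads taken from Chat 0.71. Within the WT libraries of striatum r was 0.81 and within the KO libraries 0.83. For Chat and Slc18a3 in striatum r was 0.85 (permutation adjusted p = 4.5e-05) and rho 0.75 (adjusted p = 0.00043), and r was 0.70 with the shared reads taken away.

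In hippocampus Chat and Slc5a7 had r = 0.93 (permutation adjusted p = 4.5e-05) and rho = 0.84 (adjusted p = 0.00022), and Chat and Slc18a3 r = 0.92 (adjusted p = 4.5e-05) and rho = 0.89 (adjusted p = 9e-05). The unadjusted p of both r values, 1e-05, was the smallest that 100000 resamples can give. Without the 2 libraries farthest from the median of Chat r was 0.82 and 0.89, and without the 3 libraries with markers of other tissue 0.72 and 0.85. In prefrontal cortex Chat and Slc5a7 had r = 0.37 (permutation adjusted p = 0.21) and rho = 0.24 (adjusted p = 0.39). Chat and Slc18a3 had r = 0.76 there (adjusted p = 0.0012) and rho = 0.56 (adjusted p = 0.027). That relation no longer passed the permutation test without the 2 libraries farthest from the median of Chat (r = 0.53, adjusted p = 0.088), a step that also narrows the range of Chat. Nor did it pass without the shared reads (r = 0.35, adjusted p = 0.24). For Ache r with Chat was -0.07 in hippocampus, -0.15 in prefrontal cortex and 0.41 in striatum, and the permutation adjusted p was 0.78, 0.61 and 0.11.

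**Figure D5:**
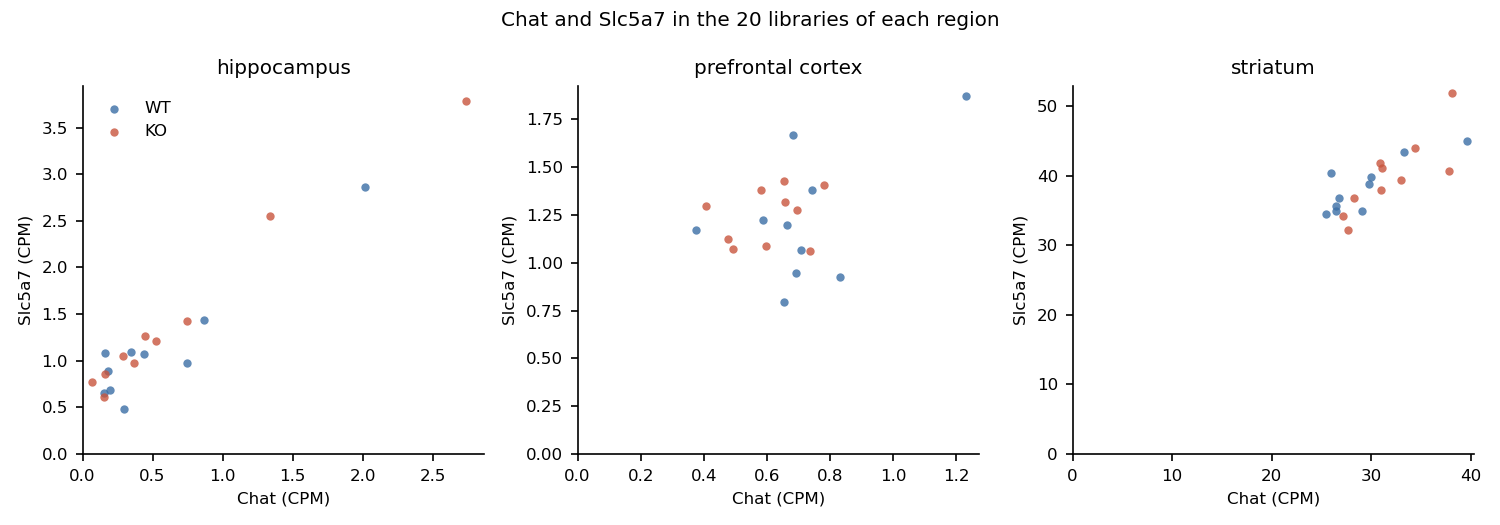
Slc5a7 level (y axis, CPM) against Chat level (x axis, CPM) in the 10 WT (blue) and 10 KO (red) libraries of each region, 1 point each, with axes from 0 that differ between panels. The points rise together in hippocampus (r = 0.93 on log2 CPM) and striatum (r = 0.80) and show no clear slope in prefrontal cortex (r = 0.37).

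Over all 60 libraries, with the mean of each of the 6 groups of genotype and region removed, the genes most like Chat in Pearson's r of log2 CPM were Slc5a7 (0.82), Cd4 (0.81) and Serpina9 (0.80), among 14093 genes with at least 1 CPM on average. Slc18a3 was left out of this search for Chat, and Chat for Slc18a3, because they share reads. The genes most like Slc5a7 were Chat (0.82), Slc18a3 (0.75) and Drd2 (0.74), and those most like Slc18a3 were Slc5a7 (0.75), Cd4 (0.65) and Rgs9 (0.64). Drd2 encodes the D2 dopamine receptor. Chrm4 was most like Kdm3a (0.77), Cttnbp2nl (0.73) and Sox8 (0.72). Chrm1 was most like Strn4 (0.80), Grik5 (0.80) and Phyhip (0.79), and Chrm3 most like Opcml (0.84), Rims1 (0.84) and Gpd2 (0.82). Lower values were found for Ache, with Pole3 (0.63) and Arl6ip4 (0.60) among the genes most like it, and for Chrm2, with Slc38a1 (0.60), Msi2 (0.58) and Ptp4a1 (0.56). The libraries share depth and dissection, and these values are descriptions.

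Other genes of the pathway were taken from lists. Of 14 transcription factors and co-markers of cholinergic neurons, 11 were called in WT striatum against prefrontal cortex, all higher in striatum, with a median log2 difference of 3.78 against 0.013 over all genes, of which 11.6% were called. Lhx8 and Isl1, factors that set the cholinergic fate, were higher by 8.67 ± 0.33 and 7.72 ± 0.49, and the factor Nkx2-1 by 6.24 ± 0.26. Lhx8 was 5.72 ± 0.76 CPM in WT striatum (SD, n = 10) and 0.0112 ± 0.0119 in WT prefrontal cortex, where a library held 0 or 1 read, so the fitted folds against prefrontal cortex depend on the prior count and are no bounds. Against hippocampus 10 of 14 were called, 9 higher and 1 lower in striatum, while 10.2% of all genes were called. Among the 10 were Lhx8 (5.396 ± 0.24), Isl1 (4.95 ± 0.37) and Gbx1 (3.83 ± 0.21). Between hippocampus and prefrontal cortex 9 of 14 were called, all higher in hippocampus, while 10.1% of all genes were called. Among the 9 were Lhx8 (3.28 ± 0.56), Nkx2-1 (2.96 ± 0.31), Isl1 (2.77 ± 0.69) and Tacr3, a tachykinin receptor (2.66 ± 0.15). WT hippocampus replicate 8 held the most Isl1 of the WT libraries of that region. Without it 9 of 14 were again called against prefrontal cortex and 10 of 14 against striatum. Isl1 was then higher in hippocampus than in prefrontal cortex by 2.25 ± 0.62. The shares of all genes called without that library are not given here. In KO against WT 0 of those tested were called in any region, with Isl1 at 0.25 ± 0.09 in striatum (edgeR adjusted p = 0.63) and 0.29 ± 0.08 in the sums (adjusted p = 0.17).

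Of 12 genes of choline supply and acetylcholine breakdown 11 were tested between regions. In WT striatum 3 were called against prefrontal cortex and 2 against hippocampus, all higher in striatum, while 11.6% and 10.2% of all genes were called in these contrasts and 10.1% between hippocampus and prefrontal cortex. The median log2 difference of the list was 0.11 and 0.21 in striatum against these regions. Prima1, which anchors acetylcholinesterase in neuronal membranes, was higher by 4.17 ± 0.12 and 3.11 ± 0.11, a far larger step than that of Ache itself. Colq, the collagen tail of the enzyme, was higher in striatum than in hippocampus by 2.31 ± 0.19 and lower in hippocampus than in prefrontal cortex by -2.96 ± 0.19. Chdh, choline dehydrogenase, and Slc44a1, a choline transporter-like protein, were higher in striatum than in prefrontal cortex by 1.65 ± 0.14 and 1.01 ± 0.05. Between hippocampus and prefrontal cortex 3 of 11 were called, Colq lower and Chdh (1.32 ± 0.14) and Prima1 (1.06 ± 0.12) higher in hippocampus. Without WT hippocampus replicate 8, 2 were called, and Prima1 was at 0.98 ± 0.11. The share of all genes called without that library is not given here. In KO against WT 0 were called in any region, and the smallest p was that of Pemt in hippocampus (-0.27 ± 0.09, edgeR adjusted p = 0.43).

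Of 17 genes of muscarinic signalling 6 were called in WT striatum against hippocampus, 3 in each direction, while 10.2% of all genes were called there. The median log2 difference of the 17 was -0.18. Rgs9 and Rgs4, which speed the shut-off of Gi and Go proteins, were higher in striatum by 4.34 ± 0.15 and 2.18 ± 0.06, and Kcnj6, a subunit of the potassium channels that Gi and Go open, was lower by -1.68 ± 0.12. Chrm5, the gene of the fifth muscarinic receptor, was lower in striatum by -1.54 ± 0.21. Against prefrontal cortex 3 of 17 were called, Rgs9 (4.98 ± 0.15) and Chrm5 (2.70 ± 0.28) higher and Kcnj3 (-1.11 ± 0.07) lower in striatum, while 11.6% of all genes were called. Between hippocampus and prefrontal cortex 3 were called, against 10.1% of all genes, Chrm5 (4.24 ± 0.26) higher and Rgs4 (-1.80 ± 0.05) and Plcb4, a phospholipase C (-1.39 ± 0.10), lower in hippocampus. Chrm5 thus had an order of its own among the muscarinic receptors, with 3.08 ± 0.83 CPM in WT hippocampus, 1.06 ± 0.30 in striatum and 0.159 ± 0.116 in prefrontal cortex, where a library held 1 to 18 reads. In KO against WT 0 of 17 were called in hippocampus or striatum and 0 of the 16 tested in prefrontal cortex, where Rgs4 had the smallest p (0.17 ± 0.05, edgeR adjusted p = 0.12).

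Of 16 subunits of nicotinic receptors, the ion channels opened by acetylcholine, 11 were tested between regions, and the shares of all genes called were 10.2% in striatum against hippocampus, 11.6% in striatum against prefrontal cortex and 10.1% in hippocampus against prefrontal cortex. The median log2 difference of the 11 was 0.34, 0.06 and 0.15 in that order. In WT striatum against hippocampus 3 were called, Chrna1 (-2.99 ± 0.16) and Chrna5 (-1.23 ± 0.14) lower and Chrna2 (1.68 ± 0.28) higher in striatum. Against prefrontal cortex 2 were called, Chrnb3 (-1.24 ± 0.24) and Chrna1 (-1.12 ± 0.18), both lower in striatum. Between hippocampus and prefrontal cortex 4 were called, Chrna1 (1.87 ± 0.14) and Chrna7, the subunit of the homomeric channel (1.30 ± 0.08), higher and Chrnb3 (-1.63 ± 0.24) and Chrna2 (-1.62 ± 0.28) lower in hippocampus. Chrna7 was 28.001 CPM in WT hippocampus, 11.4 in prefrontal cortex and 17.9 in striatum. In the same order Chrna5 was 4.72, 2.61 and 2.01 CPM. Chrna1 (1.66, 0.451 and 0.205), Chrna2 (0.282, 0.870 and 0.904) and Chrnb3 (0.548, 1.70 and 0.719) were lower still. Chrnb2 (60.65, 55.0 and 60.1 CPM) and Chrna4 (27.7, 43.6 and 43.7 CPM) were not called between regions. Of 7 chaperones and modulators of nicotinic receptors 0 were called between regions, since none reached the required size. An unadjusted edgeR p under 0.05 was found for 6 in hippocampus against prefrontal cortex. It was found for 5 in striatum against hippocampus and for 4 in striatum against prefrontal cortex. Most genes met that limit, with 11179, 10905 and 11651 of the 15826 genes tested in the same order. In KO against WT 0 subunits and 0 chaperones were called in any region, and Chrna5 (0.34 ± 0.11, edgeR adjusted p = 0.20) and Ly6e (0.14 ± 0.04, adjusted p = 0.15) had the smallest p, both in prefrontal cortex.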

How the data were processed

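RNA of 60 libraries (hippocampus, prefrontal cortex and striatum, 10 KO and 10 WT each) was available as 1 deposited table of raw read counts for 21950 genes, of which 265 had no read in any library. The submitters' processing notes name the aligner STAR 2.5.2b, the trimmer cutadapt 1.16, DESeq2 1.16.1, bedtools, FastQC 0.11.4 and the build GRCm38, with no order of steps. Per the file headers each feature runs from gene start to gene end, so intron reads are counted, and nested genes on 1 strand share reads.

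KO and WT were compared in each region and on counts summed over the regions, regions within WT, and the interaction over all libraries, with edgeR 4.0.16 (R 4.3.3; TMM, filterByExpr, quasi-likelihood F test, Benjamini-Hochberg adjusted p under 0.05 over all genes tested, for regions also an absolute log2 difference of at least 1). Differences are given ± SE with 95% intervals. The test was checked on simulated counts. Alternatives were DESeq2 1.42.0, limma 3.58.1 voom, RLE size factors, other filters on low counts, a single fit of all libraries, each replicate left out, the replicate number as a block, and Chat counts less those of Slc18a3. Correlations used 100000 resamples (scipy 1.17.1). RefSeq promoter windows (GRCm38.p6) were found for 7 of the 8 genes. Exon lengths are from GENCODE M21, which matched 21886 of the features.

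Replicate numbers run from 1 to 10 in each group. Deviations from the group means correlated at over 0.1 in 10 of 10 equal numbers for prefrontal cortex with hippocampus and with striatum, in both genotypes, and in 8 of 10 for hippocampus with striatum. The pairing of regions thus comes from the values, and no label states it.

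The genes, lists and tests were chosen with earlier results of these data known. Named were the 8 genes, in each pathway list up to 4 called genes of largest difference or at most 2 of smallest p, and the 3 genes most alike to each member. The levels of nicotinic subunits, and the hippocampal libraries and markers set beside Chat, were chosen after their values were seen. A few values that this rule would name are not reported here.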

Additional observations from a re-analysis of the deposited data

Results flagged for a closer look

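The level of each gene in each of the 6 groups was searched for a library far from the other 9, and 5 of the 48 groups held one. Chance alone marks about 1 group in 20. Chat stood at 2.73 CPM in KO hippocampus replicate 2, with the others at 0.0659 to 1.34 CPM, and at 2.01 CPM in WT hippocampus replicate 8, with the others at 0.153 to 0.865 CPM. Slc5a7 stood at 2.86 CPM in the same WT hippocampus replicate 8, with the others at 0.485 to 1.44 CPM. These libraries are the ones with over 1 CPM of Isl1, and the part of other tissue in their Chat and Slc5a7 levels was not tested. Chat stood at 1.23 CPM in WT prefrontal cortex replicate 5, with the others at 0.374 to 0.831 CPM. Ache stood at 62.2 CPM in KO hippocampus replicate 1, with the others at 42.9 to 52.7 CPM.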

How the results depend on the processing

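No alternative called a difference between KO and WT for any of the 8 genes, over 199, 222 and 224 values in hippocampus, prefrontal cortex and striatum, 56 in the sums and 48 for the interaction. The lowest adjusted p was 0.70, 0.18, 0.43, 0.34 and 0.89 in that order. The number of genes called over the whole table depended on the tool. In hippocampus it was 20, with 47 by DESeq2 and 12 to 26 with a replicate left out. In prefrontal cortex it was 18, with 222 by DESeq2, 208 in a single fit of all libraries, 3 with olfactory bulb markers as a covariate, and 9 (for example without KO replicate 3) to 68 (without KO replicate 7) with a replicate left out. In striatum it was 8, with 28 by DESeq2, 22 in the single fit and 5 to 15 with a replicate left out. On summed counts it was 27, with 131 by DESeq2 and 649 in a fit of the 60 libraries with region as a term. The interaction called 4, with 17 by DESeq2 and 1 each with RLE size factors, with no filter and with a filter of 1 CPM in 10 libraries.

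With the replicate number as a block, 5, 10 and 3 genes were called in the 3 regions, and 190 in limma voom over all 60 libraries. Between KO and WT the numbers mark no shared source, and equal numbers correlated at over 0.1 in 2, 2 and 1 of 10 pairs. The block changed no call of the 8 genes.

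Between hippocampus and prefrontal cortex 2 of the 8 were called in WT, 0 in the KO libraries and 1 to 2 with a replicate left out (1 without replicate 3). In WT 10.1% of all genes were called, and the shares in the KO and left-out fits are not given here. In the KO libraries Chrm4 only just missed the required size, at -0.97 ± 0.10. Chat with Slc18a3 in prefrontal cortex lost its call without the 2 far libraries (r = 0.53) and without shared reads (r = 0.35). The hippocampal and prefrontal levels of Chat, Slc18a3 and Slc5a7 rest on few reads. The cause of these shifts was not tested.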
